A study of Mus musculus with 23 samples.

Results

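The library described here is micro-dissected replicate 18, the last of 18 plates of hand-dissected mouse bone marrow cells that were deposited as a file of their own. It was chosen by a rule that used no expression value: of the 18 plates with such a file, it was the only one with no columns in the deposited table of all cells. Of its 96 wells, 83 held at least 1000 transcripts after the ERCC spike-in rows (synthetic RNA added to each well) were left out, and these 83 wells are called its kept cells. The same minimum kept 696 cells in the other 17 plates, so replicate 18 gave 83 of 779 kept cells. In the study, bone marrow was gently flushed and clumps of attached cells were taken apart with needles until single cells were left, each of which went into 1 well of a plate and was sequenced by CEL-seq, a method that counts the 3' ends of messenger RNAs. All 18 plates carry the same labels: bone marrow cells of the mouse (Mus musculus), micro-dissected, with no treatment, genotype, strain, age, sex or animal given. The labels thus do not tell which plates share an animal, and p-values measure only the spread between plates. Plates of haematopoietic stem cells (HSC), sorted as Lineage- Kit+ Sca1+ CD150+ CD48-, served as cells that should lack stromal and muscle genes; 245 kept cells of 4 such plates were used.

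Replicate 18 carries the working description of a plate with stromal cells, after Col1a1, Col1a2, Dcn and Igfbp5, and those 4 markers were indeed above every other plate. They summed to 3490 CPM (counts scaled to a common library total), whereas the 14 genes of the skeletal muscle list summed to 51853 CPM and at least 3 of them were present in each of the 83 kept cells. The plate is therefore called by its number below, and no cell type name is given to its cells as a whole.

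Skeletal muscle fibres contract by sliding thin filaments of actin, troponin and tropomyosin past thick filaments of myosin, and fast fibres use their own isoforms of most of these proteins. Calcium released from the sarcoplasmic reticulum starts each contraction and a calcium pump ends it, while creatine kinase and glycogen breakdown keep ATP supplied. Stromal cells of the marrow, which include reticular cells, osteoblasts that lay down bone, adipocytes and fibroblasts, make the collagen matrix and the signals that hold blood cells in place. Type I collagen is a fibre built from the products of Col1a1 and Col1a2, and decorin, encoded by Dcn, binds to such fibres.

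Promoters of 3 genes, Acta1 and Myh4 of muscle and Col1a2 of the matrix, are shown as examples. Each run is 300 bases of build GRCm38.p6 from RefSeq, 250 bases before to 50 bases after the annotated start, in the direction of the gene, with capitals for matches to TATAAA, to CCAAT and to the CArG box (the binding motif of serum response factor, searched by its usual consensus), on both strands. Acta1 lies at chr8:123894726-123895025 on the minus strand, Myh4 at chr11:67237562-67237861 on the plus strand and Col1a2 at chr6:4505368-4505667 on the plus strand.
Acta1: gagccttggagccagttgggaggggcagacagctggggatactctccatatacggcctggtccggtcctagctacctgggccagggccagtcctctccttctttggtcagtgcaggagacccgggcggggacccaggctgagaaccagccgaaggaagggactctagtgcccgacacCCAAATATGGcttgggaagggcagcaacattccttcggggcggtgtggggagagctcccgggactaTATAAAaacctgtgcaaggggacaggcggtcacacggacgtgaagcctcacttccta
Myh4: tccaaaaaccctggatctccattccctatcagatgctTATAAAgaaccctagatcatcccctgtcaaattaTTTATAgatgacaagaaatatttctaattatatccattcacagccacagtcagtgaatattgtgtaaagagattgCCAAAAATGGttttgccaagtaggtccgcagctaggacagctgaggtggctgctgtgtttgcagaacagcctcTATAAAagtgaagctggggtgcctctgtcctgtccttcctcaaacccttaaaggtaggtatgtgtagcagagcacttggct
Col1a2: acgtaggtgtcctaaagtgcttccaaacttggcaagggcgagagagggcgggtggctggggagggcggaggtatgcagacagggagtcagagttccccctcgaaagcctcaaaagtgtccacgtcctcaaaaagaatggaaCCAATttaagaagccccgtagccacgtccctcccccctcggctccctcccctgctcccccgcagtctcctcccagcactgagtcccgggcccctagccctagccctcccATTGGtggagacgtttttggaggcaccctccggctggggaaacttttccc
The Acta1 and Myh4 windows hold 1 CArG box each, and the Col1a2 window holds 2 CCAAT matches. Among all 32851 promoters in the table, 1.63% held a CArG box, 13.6% held TATAAA and 37.4% held CCAAT. Of the 14 genes of the muscle list used below, 12 had a promoter in the table, of which 2 held a CArG box, 4 held TATAAA and 6 held CCAAT. The 2 with a CArG box were Acta1 and Myh4, the 2 shown, so they do not stand for the list. Of the 4 stromal markers, 2 had a promoter in the table, of which 0 held a CArG box, 0 held TATAAA and 1 held CCAAT. These matches describe the sequences and are no measure of binding.

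Replicate 18 was the deepest of the 18 plates in total, with 291141 transcripts in its kept cells against 7536 to 278098 in the others, and 86.5% of its wells were kept against 5.21% to 72.9%. Per kept cell it was not unusual: the median of 2448 transcripts ranked 4 of 18 (others 1280 to 3197) and the median of 1197 genes ranked 6 (others 756 to 1540). A single transcript over all its kept cells equals 3.43 CPM. In the other plates it equals 3.60 to 133 CPM, so for genes with few transcripts a 0 in a shallow plate does not show a lower level. Well numbers were assumed to mark the same barcodes on every plate, which the labels do not state. Replicate 18 shared 5 to 62 kept well numbers with each other plate. The median correlation of same-numbered wells differed from that of other wells by -0.024 to 0.033, across 2682 genes.

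Skeletal muscle transcripts made up 5.19% of all transcripts of replicate 18. Summed over a list of 14 muscle genes, the level was 51853 CPM (95% Poisson interval 51029 to 52687, counting error only), against 24.5 to 6423 CPM in the other plates with a median of 292 CPM and the highest value in replicate 11. All 14 genes had a higher CPM in replicate 18 than in any of the other 17 plates; 267 of the 6632 genes tested, or 4.03%, lay above all others in the same way. The level in the 4 plates of sorted HSC was 134 CPM.

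Acta1, the skeletal actin of the thin filament (chr8:123891769-123894751), stood at 8709 CPM against 0 to 944 CPM in the others, with a median of 12.2 CPM. Tnnc2, the calcium-sensing troponin of fast fibres, stood at 5460 CPM against 0 to 388 CPM, with 9 of 17 plates at 0. Tnnt3, the troponin that ties the complex to tropomyosin, stood at 4790 CPM against 0 to 811 CPM. Tpm1, a tropomyosin that other tissues also use, stood at 4511 CPM against 24.5 to 885 CPM and was the only member of the list above 0 in every plate. None of these ranges overlapped the value of replicate 18.

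Among the motor proteins of the thick filament, the heavy chains were dominated by Myh4, the fast type IIb form, with 1294 transcripts in 74 cells. The other fast forms followed, with 182 transcripts of Myh1 and 87.7 of Myh2, and the slow form Myh7 had 18.1, so that Myh4 held 81.8% of the transcripts of these 4 genes. Counts of such close paralogs can be split between them by the read mapping. The light chains Mylpf and Myl1 stood at 3861 and 2890 CPM against at most 415 and 432 CPM in the others. Pvalb, the calcium buffer of fast fibres, stood at 3404 CPM against at most 384 CPM, and the calcium pump gene Atp2a1 stood at 1838 CPM against at most 270 CPM. Ckm, the muscle creatine kinase, stood at 5468 CPM against 0 to 597 CPM, and 10 of the other plates were at 0. Both light chains, the calcium genes and Ckm thus showed the same order, replicate 18 first and no overlap.

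**Figure D1:**
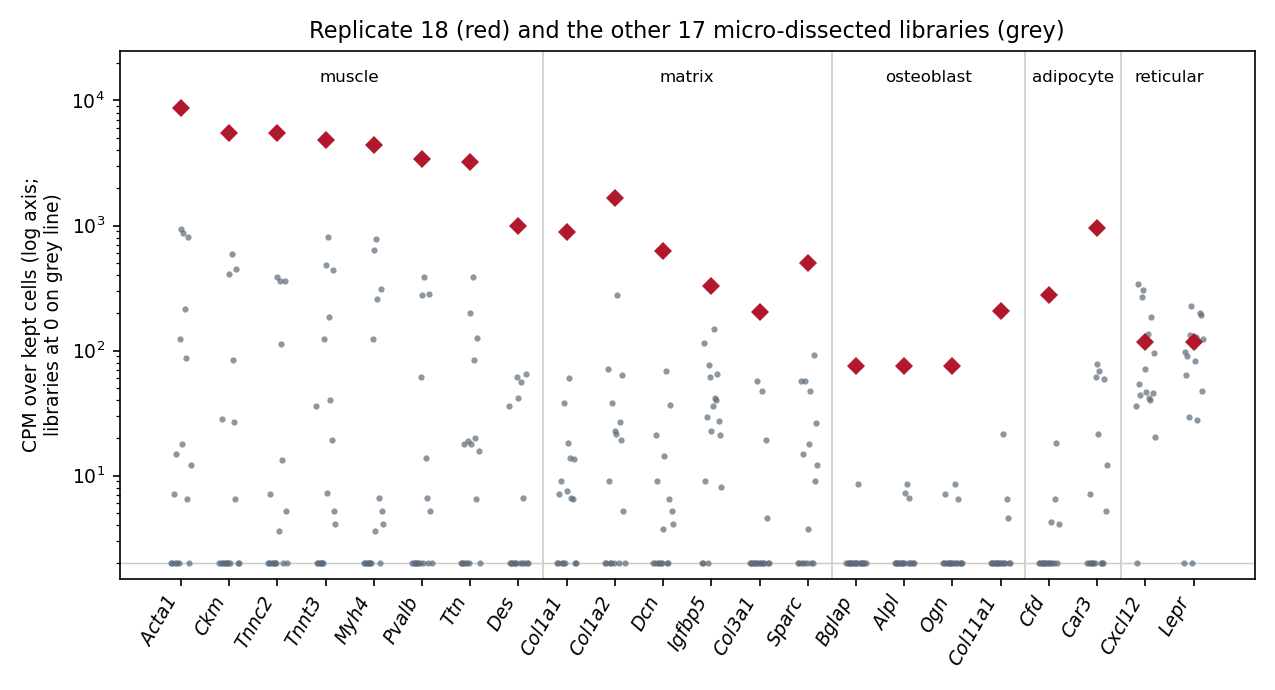
CPM over kept cells (log axis) of 22 genes in replicate 18 (red diamonds) and in each of the other 17 plates (grey points, plates at 0 on the grey line). Replicate 18 lies above all others for the 8 muscle genes, the 6 matrix genes, the 4 osteoblast genes and the 2 adipocyte genes, and within the others for Cxcl12 and Lepr.

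In the fit over all plates, 142 of 6632 genes were higher in replicate 18 than in the other 17 (edgeR's quasi-likelihood test, adjusted p under 0.05), which is 2.14% of the genes tested. Their log2 fold changes ran from 1.66 to 6.61, and 140 of them lay above all 17 others in CPM. Of the muscle list, 11 of 14 were among them and none were lower, with a median log2 fold change of 5.53 beside -0.03 over all genes tested. Tnnc2 rose by 6.22 ± 1.34 (SE; adjusted p 0.0148) and Mylpf by 5.84 ± 1.10 (adjusted p 0.00429). Ckm rose by 5.90 ± 1.43 (adjusted p 0.0366). The 3 members that missed the threshold were Acta1 (5.73 ± 1.47, adjusted p 0.0583), Tnnt3 (5.38 ± 1.42, adjusted p 0.0675) and Myh4 (5.28 ± 1.54, adjusted p 0.137). With 1 plate on one side, the test takes its spread from the other 17 and assumes that replicate 18 varies like them.

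The muscle calls depended on the fit more than the muscle levels did. DESeq2 called 13 genes in all and none of the muscle list, and edgeR without replicates 1 to 5 called 4 of its 14 genes, while without replicate 11, the plate with the next highest level, it called 13. No 2-sided permutation test of 1 plate against 17 can go below p = 0.111.

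Further muscle genes were grouped by role after their values had been seen, so the counts below reflect that choice and are given without a test of the groups. All 10 genes of the Z-disc and intermediate filaments that were tested passed the threshold, among them Actn3, the fast-fibre actinin (1563 CPM against at most 178 CPM), and Des, the muscle desmin, which rose by 6.15 ± 0.87 (adjusted p 0.000193). All 12 genes of calcium handling passed, including Ryr1, the calcium release channel (309 CPM against at most 38.6 CPM). All 15 genes of energy supply passed, including Cox8b, a muscle subunit of cytochrome oxidase (524 CPM against at most 47.2 CPM) and Pygm, the muscle glycogen phosphorylase (547 CPM against at most 98.9 CPM). Ttn, the spring protein titin, stood at 3212 CPM against at most 388 CPM. Without wells 15 and 57, the 2 with most muscle transcripts, which was tried after the values were seen, 8 of the 10, 5 of the 12 and 12 of the 15 genes passed, and all of them were still above every other plate in CPM.

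The largest fold change of all was that of Myl2, a light chain of slow fibres and heart, at 6.61 ± 0.76 (adjusted p 4.57e-07), with 38.8 transcripts in 16 cells and 15 of the other plates at 0. Myl3, its slow-fibre partner, rose by 6.20 ± 0.69 (adjusted p 3.15e-07). Ankrd23, a titin-binding protein that answers to stretch, stood at 321 CPM against at most 22.9 CPM, and Rbm24, a splicing regulator of muscle, at 107 CPM against at most 5.25 CPM. Myl2 and Myl3 were 2 of the 3 slow-fibre genes tested out of 8 listed. The third, Atp2a2, a calcium pump of slow fibres and many other cells, did not pass. Genes of muscle precursors had few transcripts: of the 9 on that list, 6 had a row in the files and 4 had any transcript in replicate 18. They summed to 11.03 transcripts, with Myog at 0 and a single transcript of Myod1. Myf6, a regulator kept on in mature fibres, had 6.02 transcripts. The precursor list was still highest in replicate 18, at 37.9 CPM against 0 to 19.02 CPM in the others. None of its genes was abundant enough to be tested.

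Every one of the 83 kept cells had transcripts of at least 3 of the 14 muscle genes (95% exact binomial interval 95.7% to 100%). In the other plates 49 of 696 cells did, 30 of them in replicate 11, and in sorted HSC 1 of 245 did. After each cell was thinned to 1000 tags, which left out 4, 15 and 0 shallower cells, the counts were 75 of 79 (94.9%) in replicate 18, 27 of 681 (3.96%) in the other plates and 0 of 245 in sorted HSC. The last allows a share of up to 1.22% of cells with such transcripts by a floor of 3 cells, and up to 1.49% by the exact binomial interval. Median depths were 2448, 2258 and 1926 transcripts per cell. Such intervals hold the counting error and nothing else.

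The share of muscle transcripts differed widely from cell to cell. It ran from 0.259% to 27.5% of a cell's transcripts, with a median of 2.60%, while the median was 0 in 14 of the other 17 plates and at most 0.0795% in replicate 11. In replicate 18, 19 cells were over 5% and 8 over 10%, against 5 and 3 in all other plates together. The highest single cell elsewhere was in replicate 9, at 21.4%. The lowest cell of replicate 18 was thus above the median cell of every other plate.

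**Figure D2:**
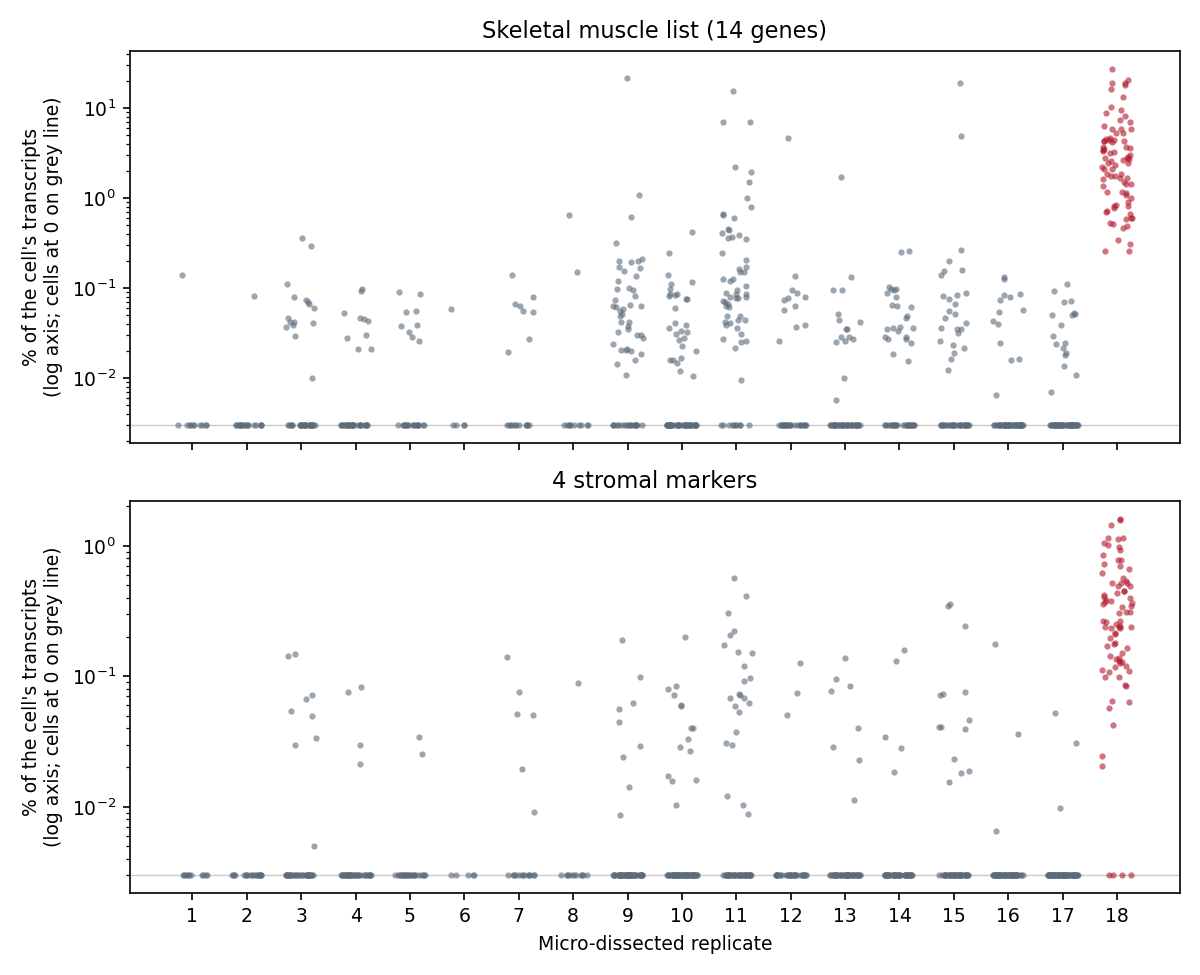
Share of each kept cell's transcripts (log axis, cells at 0 on the grey line) from the 14 muscle genes (top) and from the 4 stromal markers (bottom), by plate; each point is 1 cell, replicate 18 in red. All 83 cells of replicate 18 lie at 0.259% or above for muscle, and 4 of them lie at 0 for the stromal markers.

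Wells 15 and 57 held most. Well 15 had 3922 muscle transcripts of 14252 in all (27.5%) and well 57 had 2360 of 13172 (17.9%). Together they held 9.42% of the plate's transcripts but 41.6% of its muscle transcripts, and 8.32% of its stromal marker transcripts. Acta1 counted 567 and 469 in these wells and 10.2 in the median cell. Over the 142 genes that rose, a median of 35.6% of transcripts came from the same wells, and 102 of the 142 had over 25% there. Genes at or under the wells' share of all transcripts numbered 22, among them Col1a1, Col1a2, Col3a1, Dcn, Igfbp5, Sparc, Bglap, Cfd, Fbln2, Cygb and the muscle genes Myl2 and Ppp1r3a. Without both wells, which was tried after the values were seen, the muscle list stood at 33425 CPM, all 14 genes still lay above every other plate, and edgeR called 90 genes, of which 4 were on the muscle list and 4 were the stromal markers.

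**Figure D3:**
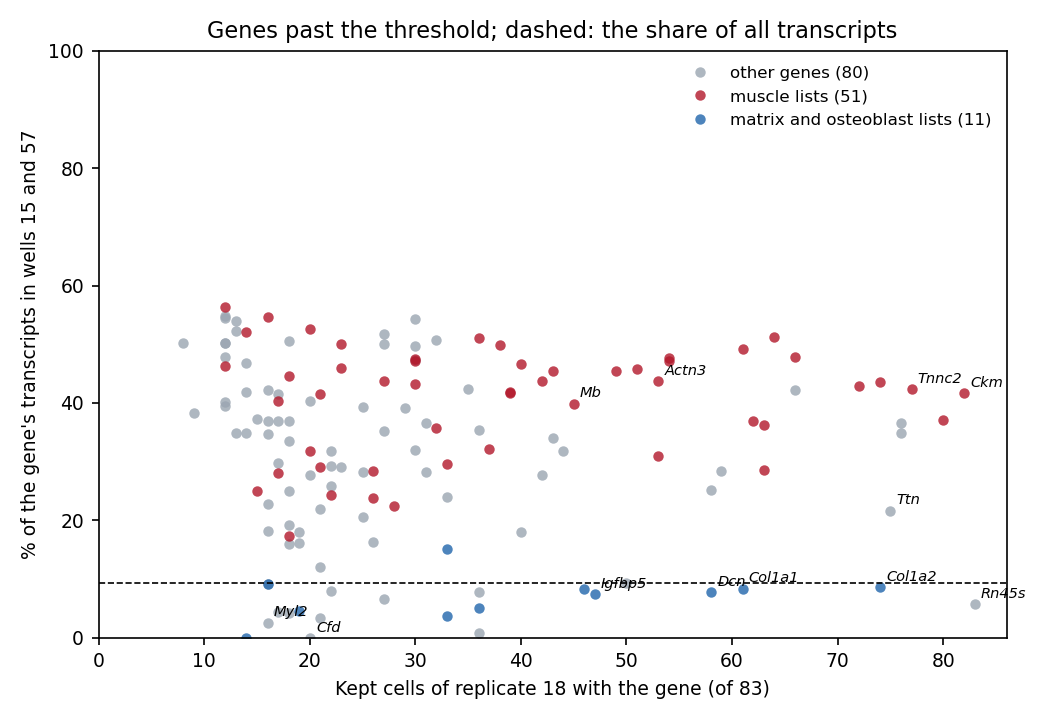
The 142 genes higher in replicate 18: the number of its 83 kept cells with each gene (x) against the percent of the gene's transcripts found in wells 15 and 57 (y). The dashed line is those wells' 9.42% of all transcripts; genes of the muscle lists (red) lie above it, Myl2 (2.58%) and Ppp1r3a (9.10%), drawn among the other genes, under it, and matrix and osteoblast genes (blue) at or under it except 1 of 11.

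The 4 stromal markers summed to 3490 CPM, or 0.349% of transcripts (95% Poisson interval 3278 to 3711 CPM), against 0 to 559 CPM in the other plates (median 56.4 CPM, highest in replicate 11) and 18.6 CPM in sorted HSC. Col1a2, a chain of type I collagen (chr6:4504814-4541544), stood at 1654 CPM against 0 to 280 CPM, with a median of 9.005 CPM. Col1a1, its partner chain (chr11:94936224-94953042), stood at 881 CPM against 0 to 59.96 CPM. Dcn (chr10:97479609-97518143) stood at 630 CPM against 0 to 68.8 CPM. Igfbp5, which binds insulin-like growth factors (chr1:72857932-72874884), stood at 325 CPM against 0 to 150 CPM and had the smallest gap. For each marker the highest other plate was replicate 11, which was also highest for the summed muscle list.

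All 4 markers passed the threshold, and the plate had been described by them beforehand, so this is not independent evidence. Col1a1 rose by 6.31 ± 0.56 (SE, log2; adjusted p 2.76e-08), Dcn by 5.67 ± 0.62 (adjusted p 6.82e-07), Col1a2 by 5.58 ± 0.97 (adjusted p 0.00193) and Igfbp5 by 3.15 ± 0.69 (adjusted p 0.00617), all by edgeR. DESeq2 called Col1a1 and Col1a2 of the 4. Muscle genes moved with this result throughout, as given above, and so did Rn45s, the 45S ribosomal RNA precursor, at 22016 CPM against 2223 to 11855 CPM; their part in it was not tested.

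Stromal markers were spread over most wells, as the muscle genes were. At least 1 of the 4 was present in 79 of 83 cells, at least 2 in 68 (81.9%, 95% exact binomial interval 71.95% to 89.5%), at least 3 in 59 and all 4 in 34. In the other plates 30 of 696 cells had at least 2, of which 12 were in replicate 11, and in sorted HSC 0 of 245 did, which allows up to 1.22% by the floor of 3 cells and 1.49% by the exact interval. Thinned to 1000 tags per cell, the counts were 47 of 79 (59.5%), 15 of 681 (2.20%) and 0 of 245. Most of these cells had few copies: the median cell held 3.02 transcripts of Col1a2 and a single transcript each of Col1a1, Dcn and Igfbp5. No single cell held much of the total: the 2 highest cells together held 15.6% of Col1a2, 15.4% of Col1a1, 18.05% of Dcn and 18.3% of Igfbp5, against 40.8% for Acta1.

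The list of matrix genes of mesenchymal cells held 25 genes beside the 4 markers. All 25 had transcripts in replicate 18, 8 were abundant enough to be tested, and 3 of those were higher and none lower, with a median log2 fold change of 1.65 over the 8. The 3 were Col3a1, type III collagen (204 CPM against at most 57.3 CPM), Sparc, a collagen-binding protein of bone (497 CPM against at most 91.9 CPM), and Fstl1 (186 CPM against at most 118 CPM). Outside the list, Fbln2, a protein of elastic fibres and basement membranes, rose by 6.25 ± 0.82 (adjusted p 3.94e-06) on 23.1 transcripts in 17 cells, and Nid1, a basement membrane linker, by 5.90 ± 0.86 (adjusted p 2.09e-05). Cygb, a globin of fibroblast-like cells, rose by 6.19 ± 0.82 (adjusted p 4.08e-06) and was, with Gpx3, 1 of 2 of the 6 tested fibroblast genes to pass.

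Of 19 osteoblast genes, 7 were tested and 4 passed, with a median log2 fold change of 5.02. Bglap, which encodes the bone hormone osteocalcin and has close copies, had 22.1 transcripts in 14 cells and 16 of the other plates at 0. Alpl, the alkaline phosphatase that frees phosphate for mineral, had 22.1 transcripts in 16 cells, and Ogn, the matrix protein osteoglycin, 22.1 in 19 cells. Col11a1, a minor fibril collagen, had 60.3 in 33 cells and rose by 6.08 ± 0.75 (adjusted p 1.52e-06). Each of the 4 stood above all other plates. Each had at most 7.02 transcripts in all other plates together, so its level in replicate 18 largely decided that it was tested. The share of tested genes that passed and their median fold change thus partly follow from which genes were tested. The same holds for Fbln2, Nid1, Cygb, Myl2 and Rbm24 above and for Cfd below. Counts of slow-fibre, fibroblast and adipocyte genes that passed are affected in the same way. Ibsp, bone sialoprotein, stood at 99.99 CPM against at most 85.9 CPM and missed the threshold (adjusted p 0.266).

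Adipocyte genes were led by Cfd, the secreted protease adipsin, which rose by 6.52 ± 0.64 (adjusted p 3.84e-08), and by Car3, a carbonic anhydrase of fat and slow muscle, which rose by 5.63 ± 0.79 (adjusted p 0.000152); the other 2 tested members, Fabp4 and Lpl, had adjusted p of 0.242 and 0.137. Wells 15 and 57, the 2 with most muscle transcripts, held 28.3% of the Car3 transcripts and 0% of those of Cfd, beside 9.42% of all transcripts. A single well decided the level of Cfd: well 17 held 54.4 of its 81.5 transcripts (66.7%). Without that well the level of Cfd was 94.3 CPM in place of 280 CPM, still above the 18.2 CPM of the highest other plate.

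The list of reticular stromal cells, the main source of the niche chemokine Cxcl12 in marrow, showed no such rise. Of its 19 genes 8 were tested and none passed, with a median log2 fold change of 0.50. The summed level of 1606 CPM lay inside the range of the others, 591 to 1938 CPM. In replicate 18 the highest sums were 36.1 transcripts in well 83 and 25.7 in well 74, grouped below with promyelocytes and macrophages. The summed level is thus no measure of reticular cells alone, and their absence was not shown. Cxcl12 stood at 117 CPM against 0 to 342 CPM (log2 fold change 0.54 ± 1.04, adjusted p 0.999) and Lepr, the leptin receptor, at 117 CPM against 0 to 229 CPM (0.52 ± 0.74, adjusted p 0.999). The list of niche factors, signals that keep blood stem cells and their progeny, had 7 genes tested and none passing. Endothelial genes had 6 tested and none passing, with a summed level of 674 CPM against 14.8 to 2012 CPM. Of the smooth muscle list, 3 were tested and 2 passed; those were Des and Tpm2, which skeletal muscle also expresses.

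A few wells held more than 1 or 2 genes of a given stromal type; they were picked out after their values had been seen. Well 96 had 20 of the 25 matrix genes other than the 4 markers, where the next cell had 12 and the median cell 3, and it held the most Col1a2 (42.3 transcripts) and Col1a1 (20.8) of any cell. It also had 9 of the 19 osteoblast genes, among them 4.03 transcripts of Spp1, osteopontin, and 3.02 of Bglap. Muscle genes took 3.24% of its transcripts and the erythroblast list 2.91%. Well 17 had all 10 adipocyte genes, 127 transcripts in all against 57.97 in the next cell and 3.01 in the median cell, including 25.2 of Fabp4, the fatty acid binding protein of fat, 3.02 of Adipoq, the hormone adiponectin, and 3.02 of Cidec, a lipid droplet protein. Muscle genes took 10.3% of that well. Well 95 had 10 of the 18 endothelial genes, where the next cell had 7 and the median 1, including 4.03 transcripts of Cldn5, a tight junction protein of vessels, and 2.01 of Egfl7; muscle genes took 3.67% of it.

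Spearman's rho between the stromal and the muscle share of a cell's transcripts was 0.517 over the 83 cells, which share 1 library and its depth, against 0.877 between Acta1 and Ckm and 0.483 between Col1a1 and Col1a2, as a description. Muscle transcripts per cell had a rho of 0.550 with the cell's total and 0.0985 with its ERCC count. Over 71 pairs of consecutive well numbers, rho was -0.076 for the muscle share and -0.113 for the stromal share. Positions of the wells on the plate are not given, so these pairs need not be neighbours. The ratio of the 2 groups differed between wells. Well 37 had 54.7 stromal and 36.3 muscle transcripts of 5180, whereas well 15 had 37.2 stromal and 3922 muscle transcripts. Over the whole plate the muscle list had 14.9 transcripts for each stromal one, against 11.5 in replicate 11, 32.05 in replicate 15 and 86.8 in replicate 9, the 3 other plates with the highest levels of the muscle list.

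**Figure D4:**
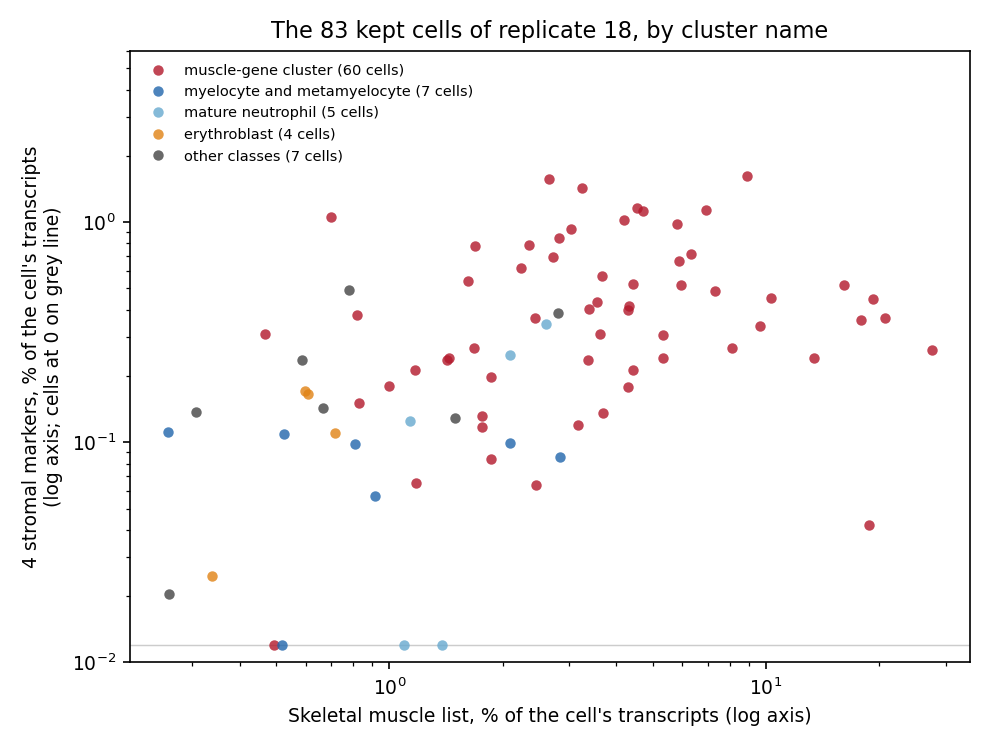
The 83 kept cells of replicate 18: share of transcripts from the muscle list (x) and from the 4 stromal markers (y), both on log axes, with cells at 0 stromal transcripts on the grey line; colours give the name of the cell's cluster. Muscle shares span 0.259% to 27.5% and stromal shares 0 to 1.61%, and the cells with over 1% stromal transcripts have muscle shares of 0.702% to 8.92%.

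The 68 cells with at least 2 stromal markers were also deeper, with a median of 2701 transcripts against 1256 in the other 15, and carried more muscle transcripts (56657 against 19342 CPM). Ranked by fold between these sets, the leading genes mostly had 1 transcript in the 15 cells, so that the ratios are loose. The first was Igj, the joining chain of secreted antibodies, at 72.98-fold (95% counting interval 13.1 to 2895), followed by Col1a1 and Dcn, which chose the set. Ear6, an eosinophil ribonuclease, was 16.2-fold (2.86 to 648). The muscle genes Ldb3, Ryr1, Cox7a1, Neb and Cox8b were also among the 20. Igj came from few wells, with 304 transcripts in well 94 and 172 in well 31, and the latter well also held 67.9 stromal transcripts, 1.57% of its total.

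Blood cells were nevertheless recognisable in the plate. In a joint clustering of all 779 cells, 60 of the 83 (72.3%, 95% exact binomial interval 61.4% to 81.6%) fell in a cluster of 70 cells led by muscle genes, 7 in a myelocyte-like, 5 in a mature neutrophil-like, 4 in an erythroblast-like, 2 each in a macrophage-like and a monocyte-like cluster and 1 each in a megakaryocyte-like, a promyelocyte-like and a plasma cell-like cluster. The muscle-led cluster is mostly this 1 plate and is set by the genes that differ between plates, so its size is no count of muscle cells. Of its 60 cells from replicate 18, 33 had over 2% of transcripts from the erythroblast list, 7 had over 10% from the neutrophil lists, 2 had over 2% from the eosinophil list and 1 from the plasma cell list. Well 77 was such a case, with 585.5 transcripts of Prg2, the major basic protein of eosinophils, beside 99.99 muscle transcripts. The 23 cells in blood cell clusters all had muscle transcripts as well, 0.259% to 2.84% of the cell's total with a median of 0.781%, whereas 255 of 618 cells in such clusters in the other plates had any and their median was 0. Among the 8 wells over 10% muscle, the erythroblast list took at most 1.84% and the neutrophil lists at most 1.51%.

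No blood cell list had a gene past the threshold in either direction. The erythroblast list was 15653 CPM in replicate 18, rank 3 of 18 plates (others 3090 to 17182 CPM), and 22 of its genes were tested with a median log2 fold change of 0.70. The lists of myelocytes (23293 CPM, others 10036 to 38055) and mature neutrophils (34179 CPM, others 13370 to 54620) were inside the range of the others, as were eosinophils, macrophages, monocytes, B cells, plasma cells and megakaryocytes. The lowest medians were those of basophil and mast cell genes (-2.69 over 7 tested) and megakaryocyte genes (-1.92 over 13 tested). Ribosomal protein, cell cycle, immediate early and MHC class I genes had no member past the threshold, and of the 16 tested genes of the chaperone list Hspb1, a small heat shock protein abundant in muscle, passed. Outside the lists, 4 genes chosen after their values were seen also passed. Cryab and Hspb6, small heat shock proteins abundant in muscle, rose by 5.32 ± 0.84 (adjusted p 0.000133) and 4.15 ± 0.55 (adjusted p 4.10e-06). Aldoa and Gapdh, enzymes of glycolysis, rose by 3.45 ± 0.42 (adjusted p 9.35e-07) and 1.66 ± 0.46 (adjusted p 0.0488), the latter called in 5 of 10 alternative fits.

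No gene was lower in replicate 18 by edgeR (0% of 6632), with 73 lower at an unadjusted p under 0.05, nor by DESeq2 (117 lower unadjusted). The design had little power in that direction: on simulated data for the same comparison, 96% of 16-fold increases were recovered and 32% of 4-fold increases, but 12% of 16-fold and 0% of 4-fold decreases, among 6632 genes. The simulation gave each gene the spread usual at its level and changed only genes above a minimum mean level. These shares thus do not apply to genes that vary more between plates. Acta1, Tnnt3 and Myh4 rose by more than 16-fold and still missed the threshold.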

How the data were processed

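Estimated transcript counts per gene and well were deposited by the authors for each micro-dissected plate, and in 1 table for all analysed cells including the sorted HSC. Per the submitters' processing notes, reads were mapped with BWA 0.6.2-r126 and the genome build was mm10; the annotation is not given in the sources used here. All values equalled -256 × ln(1 - k/256) for a whole number k of tags (tolerance 0.01), the correction of molecular barcodes for collisions, so the authors deposited expected counts (estimated counts of molecules) with no normalization; they were summed per plate over kept cells and rounded. ERCC rows were left out. No doublet caller was run, since cells came from dissected clumps. No strand setting or treatment of near-identical genes is given. The deposited per-plate files have well numbers as column names and were read as such, with the unit recorded as other.

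Plates were compared with edgeR 4.0.16 (TMM, filterByExpr, robust quasi-likelihood test, Benjamini-Hochberg adjustment at 0.05), replicate 18 against the other 17 plates; DESeq2 1.42.0 was an alternative. The fit was tested on simulated data. Cells were clustered with scanpy 1.11.5 (2000 variable genes, 30 components, 15 neighbours, Leiden resolution 1). A cluster took a list's name when that list had most genes among its 10 leading genes and at least 3 raised markers. Named genes were the 12 largest changes past the threshold outside the range of the other plates, the 4 stromal markers, up to 5 members of each list with most transcripts, and the 20 genes highest in cells with at least 2 stromal markers; those added later are stated as such. Coordinates are from GENCODE vM21 (GRCm38, the same assembly as mm10) where the file's chromosome matched, for 310 of 317 genes looked up. The members and lists were chosen with earlier results of these data known. Alternatives were minimums of 500 and 2000 transcripts, DESeq2 size factors, no filter on low counts, the DESeq2 test, leaving out plates or wells, other marker rules, thinning and other clustering settings.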

Additional observations from a re-analysis of the deposited data

Results flagged for a closer look

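The 13 wells of replicate 18 under 1000 transcripts, which no comparison above used, carried the same genes. The muscle list made up 2.68% of their transcripts and was present in 12 of the 13 wells, and the 4 stromal markers made up 0.259% and were present in 9. In the 936 wells under 1000 transcripts of the other plates the shares were 0.118% and 0.0139%, with muscle genes in 117 wells and stromal markers in 37. The median depth of these wells was 652 transcripts in replicate 18 and 254 in the others, and the part of that difference was not tested.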

How the results depend on the processing

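Of the 142 genes higher in replicate 18, the number was 497 with no filter on low counts, 13 by DESeq2 (258 genes had no adjusted p), 90 without the 2 wells with most muscle transcripts and 0 without the 68 cells with at least 2 stromal markers, which left 15 cells; in that last fit 62 of the 142 were tested and 58 kept a positive fold change, and the median of all genes shifted by -0.36. It was 118 to 184 in the other fits. All 142 kept their direction with a minimum of 500, with DESeq2 size factors, by DESeq2, with no filter and without replicates 1 to 5. Without replicates 1 to 5, 1 gene was lower (Rapgef4), which was 0 otherwise. Without the 68 cells, Igfbp5 turned to -5.58, Ibsp to -4.69, Fabp4 to -1.57 and Cxcl12 to -0.81, none past the threshold. Igfbp5 was among the stromal markers that picked those cells, so its reversal follows from that choice and is no test of the processing. The share of cells with stromal markers (81.9%) was 92.3% at a minimum of 2000, 95.2% for at least 1 marker, 71.1% for at least 3, 59.5% thinned and 54.2% for at least 3 other matrix genes; that with muscle genes (100%) was 94.9% thinned. The muscle list stood at 56544 CPM at a minimum of 2000 and 33425 CPM without the 2 wells. The muscle-led cluster (72.3%) took 82.2% at a minimum of 500, 51.8% at resolution 2, 86.7% with 1000 variable genes and 56.6% with the 142 genes left out of the clustering, and the erythroblast-like cluster (4.82%) took 1.11%, 24.1% and 1.20% in the first 3 of these. Acta1, Tnnt3 and Myh4, which missed the threshold, were not among the 142 and stayed available to the clustering without those genes. Wells kept (86.5%) were 93.8% at a minimum of 500 and 54.2% at 2000, the highest of the 18 plates at both. Replicate 11, both wells and the gene-excluding clustering were left out after seeing the data; the causes of these changes were not tested. No paired analysis was possible because the labels do not tell which plates share an animal.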

Other observations

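Replicate 18 also carried more Xist, the RNA that silences an X chromosome in female cells, than any other plate: 77.7 transcripts in 36 of 83 cells, 267 CPM against 0 to 83.3 CPM, up by 3.53 ± 0.79 (SE, log2; adjusted p 0.011, edgeR). Transcripts of 4 Y-linked genes were at 0 in replicate 18 and were present in 6 of the other plates, at 102 to 153 CPM. Replicate 11, next in both the muscle list and the stromal markers, had Xist at 77.3 CPM and no Y-linked transcript. The other plates thus mix some with Y-linked transcripts and some with Xist and none of these. Sex is not labelled, and its part in the Xist difference was not tested.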
